A study of Gallus gallus with 4 samples.

Results

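Glycolysis is the cytosolic chain of reactions that splits glucose into pyruvate, and lactate dehydrogenase then converts pyruvate into lactate while it restores the NAD+ that the chain consumes. Its enzymes are abundant in most cells, above all in fast-growing or poorly oxygenated tissue. Lactate dehydrogenase is a tetramer of M subunits, encoded by LDHA, and H subunits, encoded by LDHB. The M subunit is typical of skeletal muscle and other glycolytic tissue and favours lactate formation, while the H subunit is typical of the heart and favours lactate use. In mammals, hair follicles are known to make much lactate, and LDHA is one of the genes that hypoxia-inducible factors switch on.

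The genes described here are the 10 rows of the expression table whose name is HK1, HK2, GPI, TPI1, GAPDH, PGK1, PGAM1, ENO1, LDHA or LDHB, out of 15386 rows. They were taken by name and by no cutoff on their values, with earlier results of these data known. All 10 were found. Of the names, 9 are gene symbols in a current RefSeq table, while PGK1 is listed there as a synonym of PGK2. RNA came from untreated White Leghorn chickens, from the dermal papilla complex of dorsal feathers in their growing stage, the papilla being the mesenchymal core of the follicle. The anterior side gave 2 libraries and the posterior side gave 2, and age, sex and the number of birds are not stated in the labels. The labels do not say whether the libraries came from separate birds, so the spread behind each p-value is that between libraries and may be technical. Expression is in RPKM, read numbers scaled to gene length and to library size, so levels of different genes can be set side by side.

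The papilla label was read against a list of 12 papilla genes: 10 passed the expression filter, SOX2 did not exceed 0.163 RPKM in any library, and NOG was listed at 0 in posterior library 1. The papilla list summed to 269 and 324 RPKM in libraries 1 and 2 of the anterior side, against 147 and 308 RPKM in libraries 1 and 2 of the posterior side, and 7 of the 10 tested genes were lowest in posterior library 1. Its median log2 difference, anterior minus posterior, was 0.60, and 0.19 without that library. Of these 10 genes, 6 had a positive and 4 a negative difference. The negative ones were FGF7 at -0.64, VCAN at -0.42, BMP4 at -0.15 and FGF10 at -0.013. FGF7 and FGF10 were highest in posterior library 1. The libraries of the sides did not overlap for CORIN, ALPL and LEF-1, each higher in anterior tissue and named after their values were seen. Over all tested genes, 18.9% were separated with anterior higher. CORIN had 6.86 and 2.13 RPKM on the anterior side, against 0.308 and 0.562 RPKM on the posterior side, and ALPL had 37.2 and 33.7 RPKM, against 3.46 and 19.3 RPKM. Their log2 differences were 1.79 for CORIN (limma unadjusted p = 0.0112) and 1.93 for ALPL (limma unadjusted p = 0.0353), each with an adjusted p of 0.964. Posterior library 1 stood apart from the other libraries. The summed level of 8 smooth muscle markers was 332 and 349 RPKM in libraries 1 and 2 of the anterior side, against 4144 and 269.7 RPKM in libraries 1 and 2 of the posterior side, and all 8 had their highest value in posterior library 1. The skeletal muscle markers MYH1A, TNNT3, TNNC2, MB and MYOD1 stayed at or below 0.339 RPKM everywhere, while ACTA1 reached 567 RPKM in posterior library 1. Keratinocyte markers summed to 2502 and 831 RPKM on the anterior side and 1290.4 and 921 RPKM on the posterior side. Red cell markers summed to 139 and 623 RPKM on the anterior side and 247 and 152 RPKM on the posterior side. Endothelial markers summed to 82.3 and 75.9 RPKM on the anterior side, against 127 and 85.7 RPKM on the posterior side. Of the 4 endothelial markers, 3 were highest in posterior library 1, TEK only slightly, and KDR was lowest there at 2.42 RPKM. Nerve markers summed to at most 4.09 RPKM. By these sums, posterior library 1 held the least papilla marker RNA and the most muscle and endothelial marker RNA. Anterior library 1 held the most keratinocyte marker RNA and anterior library 2 the most red cell marker RNA. The part of these marker differences in the results below was not tested. The sequencing depth of posterior library 1, estimated from ratios of low values, was 77.1% of that of anterior library 1, while anterior library 2 was at 99.9% and posterior library 2 at 99.6%. In bulk tissue, fewer cells of a type and less RNA per cell cannot be told apart.

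The 10 genes spanned a wide range of levels, from GAPDH at 1480.0 ± 212 RPKM to HK2 at 6.22 ± 2.09 RPKM (SD over all 4 libraries). GAPDH ranked 33rd to 44th of 15386 genes, ENO1 52nd to 77th and LDHA 66th to 88th, depending on the library. PGK1 ranked between 181 and 193, TPI1 between 225 and 250, PGAM1 between 282 and 488, LDHB between 348 and 468 and GPI between 383 and 456. The hexokinases ranked far lower, HK1 between 1453 and 1790 and HK2 between 5309 and 7555. GAPDH, ENO1 and LDHA together made 78.1% and 77.98% of the summed RPKM of the 10 genes in anterior libraries 1 and 2, and 84.4% and 78.8% in posterior libraries 1 and 2. The 10 genes summed to 3978 and 3728 RPKM in the anterior libraries and 5060 and 4110 RPKM on the posterior side. That was 0.910% and 0.820% of the RPKM of all genes on the anterior side and 1.02% and 0.992% on the posterior side.

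In order of mean level the genes were GAPDH, ENO1, LDHA, PGK1, TPI1, PGAM1, LDHB, GPI, HK1 and HK2. Neighbours in that order were separated in all 4 libraries, with ranges that did not overlap, for LDHA over PGK1, PGK1 over TPI1, TPI1 over PGAM1, GPI over HK1 and HK1 over HK2. The ranges of GAPDH and ENO1 overlapped, although GAPDH was the higher of the pair in 4 of 4 libraries. ENO1 exceeded LDHA in 3 of 4 libraries, PGAM1 exceeded LDHB in 3 of 4, and LDHB exceeded GPI in 2 of 4. The order of these neighbours thus changed between libraries, and differences in level between genes were not tested.

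**Figure D1:**
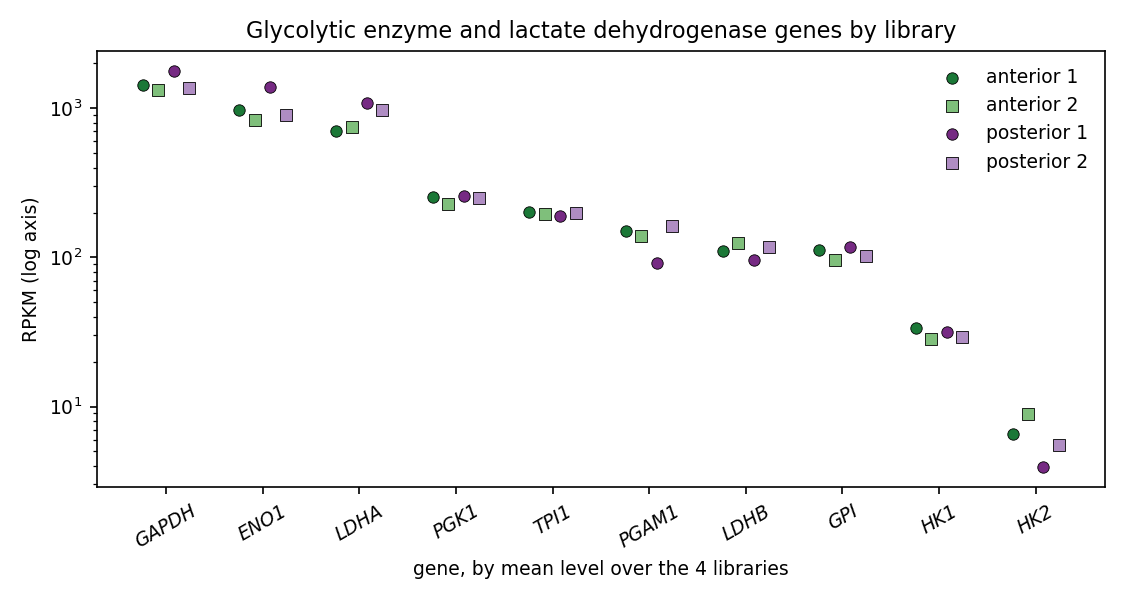
RPKM on a log axis for the 10 genes, ordered by mean level, with 1 point per library (green anterior, purple posterior; circles library 1, squares library 2). GAPDH, ENO1 and LDHA sit between 703 and 1791 RPKM, PGK1 to GPI between 92.4 and 258 RPKM, and HK2 lies lowest.

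Between the sides, LDHA and HK2 were the members whose anterior and posterior libraries did not overlap, LDHA lower and HK2 higher in anterior tissue, and neither difference passed the test. LDHA averaged 726 ± 32.6 RPKM in anterior tissue, against 1028 ± 86.8 RPKM in posterior tissue, and HK2 averaged 7.71 ± 1.72 RPKM in anterior tissue, against 4.72 ± 1.13 RPKM in posterior tissue (SD, n = 2 each). The other 8 genes overlapped between the sides, with log2 differences no larger than 0.31 in size. With limma on log2(RPKM + 1), 0 of the 10 genes had an adjusted p under 0.05, beside 0.0% of the 10939 genes tested. At an unadjusted p under 0.05 there were 0 of the 10 and 0.942% of all tested genes. Adjusted p-values of the 10 genes ran from 0.964 to 0.993. Separated libraries in 2 of 10 genes are no more than the background, since the sides did not overlap for 26.2% of all tested genes, 18.9% with anterior higher and 7.25% with posterior higher.

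As a list, the 10 genes held 5 positive and 5 negative differences, with a median log2 difference (anterior minus posterior) of -0.030. The median over all tested genes was 0.11, and 64.6% of all tested genes had a positive difference. Median ratio scaling moved the median of all genes to -0.0057 and that of the 10 genes to -0.17. Leaving out posterior library 1 gave -0.0047 for the 10 genes and 0.023 for all genes.

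**Figure D2:**
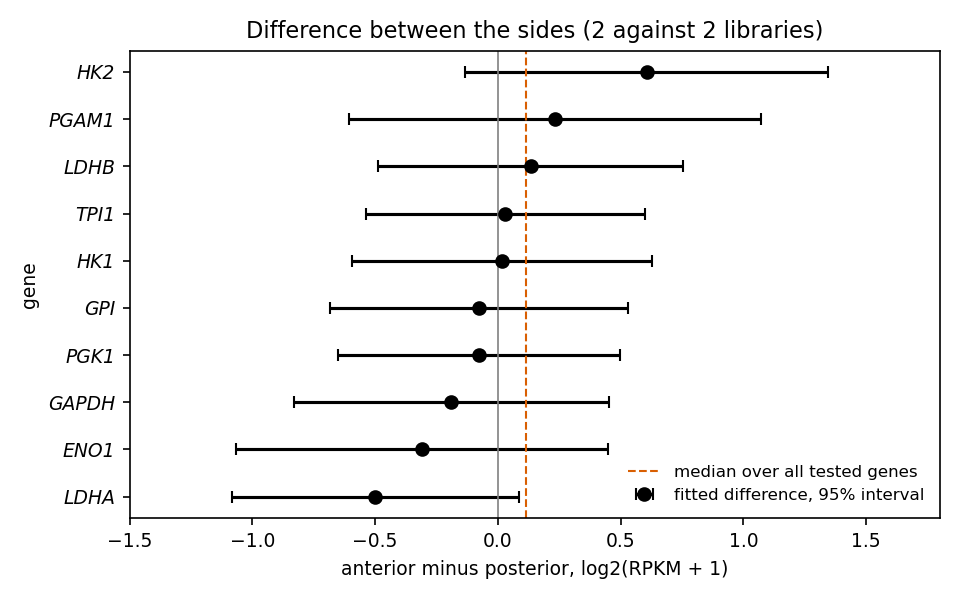
Fitted log2 difference, anterior minus posterior, for each of the 10 genes with its 95% interval from limma (2 against 2 libraries), and the median of all tested genes as a dashed line at 0.11. Each interval includes 0, with LDHA at -0.50 at the low end and HK2 at 0.61 at the high end.

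Of the lactate dehydrogenase genes, LDHA was separated between the sides and LDHB was not. LDHA stood at 703 and 749 RPKM in libraries 1 and 2 of the anterior side, against 1089.7 and 967 RPKM in libraries 1 and 2 of the posterior side. Both anterior libraries lay below both posterior libraries, and the gap between the sides was wider than the gap within either. The ratio of the anterior to the posterior mean was 0.706, and the log2 difference was -0.50 (standard error 0.23, 95% interval -1.08 to 0.085, limma unadjusted p = 0.0806, adjusted p = 0.964). Relative to the median of all genes the difference was -0.61. Genes with separated libraries, posterior higher and a difference at least as large made up 1.2% of those tested. LDHA had the most negative difference of the 10 members, so this share is a description and not a test. Without posterior library 1, the library with high smooth muscle markers, the log2 difference of LDHA was -0.41.

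LDHB was measured at 110.5 and 125 RPKM in libraries 1 and 2 of the anterior side, against 96.3 and 118 RPKM in libraries 1 and 2 of the posterior side. The sides overlapped, and posterior library 1 was the lowest. Its log2 difference was 0.13 (standard error 0.25, 95% interval -0.49 to 0.76, limma adjusted p = 0.967), and the sign turned to -0.0081 after median ratio scaling and to -0.012 without posterior library 1.

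LDHA exceeded LDHB in every library, 6.37-fold and 6.02-fold in libraries 1 and 2 of the anterior side, against 11.3-fold and 8.17-fold in posterior libraries 1 and 2. LDHA thus made up 86.4% and 85.7% of the summed RPKM of both genes on the anterior side, and 91.9% and 89.1% on the posterior side. Any scaling common to a library cancels in this ratio. It was lower in both anterior than in both posterior libraries. On the log2 scale the ratio averaged 2.63 ± 0.058 in anterior and 3.27 ± 0.33 in posterior tissue (SD, n = 2 each), a difference of -0.64. The two-sided exact permutation test over all 6 arrangements of the libraries gave p = 0.333, which is the smallest p that 2 against 2 libraries allow. The difference in log2 ratio was -0.40 without posterior library 1 and -0.87 without posterior library 2. The summed level of both genes was 814 and 874 RPKM on the anterior side, against 1186 and 1085 RPKM on the posterior side.

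**Figure D3:**
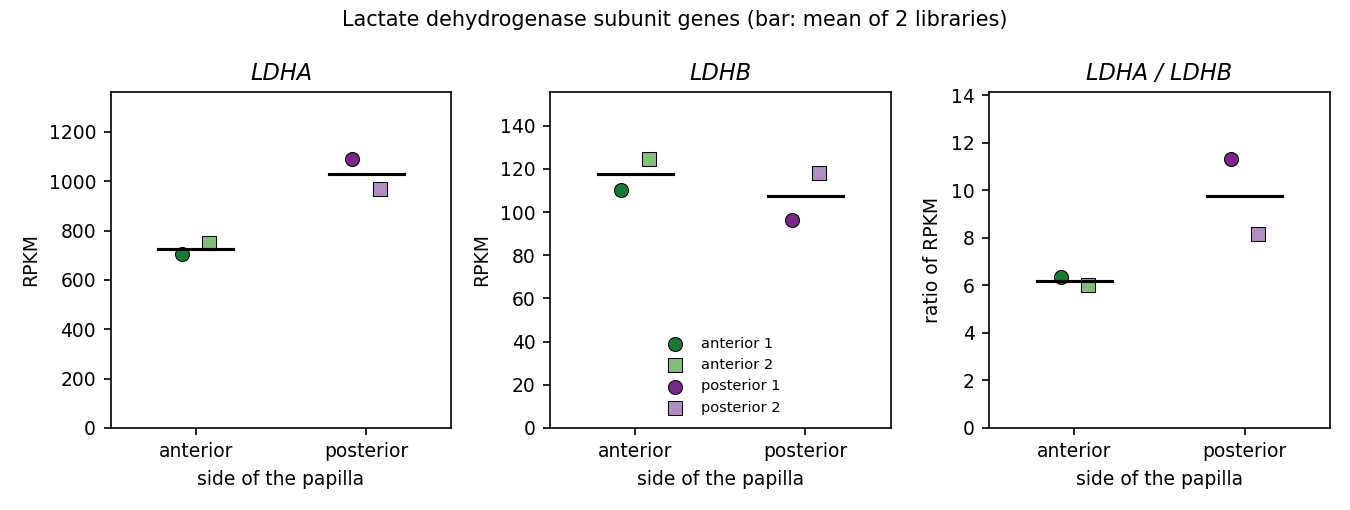
RPKM of LDHA (left) and LDHB (middle) and the ratio of LDHA to LDHB (right) in each library, grouped by side, with a bar at the mean of 2 libraries; all axes start at 0. LDHA and the ratio are lower in both anterior libraries than in both posterior libraries, while the LDHB values of the sides overlap.

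The position of LDHA relative to the rest of the pathway was read from ratios within each library. LDHA was lower in both anterior than in both posterior libraries as a ratio to 8 of the 9 other members, beside 72.6% of all other tested genes above 0 in every library. The exception was ENO1, to which LDHA stood at 0.722 and 0.898 on the anterior side and 0.783 and 1.08 on the posterior side. Against GAPDH, the LDHA ratio was 0.492 and 0.566 on the anterior side and 0.608 and 0.704 on the posterior side. Against TPI1, the steadiest member, it was 3.49 and 3.83 on the anterior side, against 5.78 and 4.83 on the posterior side. HK2 was the reverse case, higher in both anterior libraries as a ratio to 9 of 9 other members, beside 53.2% of all other tested genes. Of all 45 pairs of members, 20 had ratios that did not overlap between the sides, beside 25.9% of all pairs of tested genes. The ratios share their genes and libraries, so these counts are a description.

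Hexokinases add a phosphate to glucose and trap it in the cell. HK1, the widely expressed form, had 33.8 and 28.2 RPKM in libraries 1 and 2 of the anterior side, against 31.6 and 29.5 RPKM in libraries 1 and 2 of the posterior side. HK2, the form typical of insulin-responsive and fast-growing tissue in mammals, was at 6.50 and 8.92 RPKM on the anterior side, against 3.92 and 5.52 RPKM on the posterior side. HK1 varied little and its sides overlapped, whereas both anterior HK2 values lay above both posterior ones.

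The log2 difference of HK2 was 0.61 (standard error 0.30, 95% interval -0.13 to 1.35, limma unadjusted p = 0.0904, adjusted p = 0.964), and the anterior mean was 1.63 times the posterior mean. Relative to the median of all genes it was 0.49. A difference at least as large as that of HK2, with separated libraries and anterior higher, occurred in 3.76% of tested genes. HK2 had the most positive difference of the 10 members, so this share is a description and not a test. Without posterior library 1 the log2 difference of HK2 was 0.40. The difference of HK1 was 0.017, and its sign turned to -0.12 after median ratio scaling. HK1 made up 83.9% and 76.0% of the summed RPKM of both genes on the anterior side, and 89.0% and 84.2% on the posterior side. Their sum was 40.3 and 37.2 RPKM on the anterior side and 35.5 and 35.0 RPKM on the posterior side, the lowest total of any step of the pathway measured here.

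GPI, TPI1 and PGK1 showed little variation. GPI, which turns glucose 6-phosphate into fructose 6-phosphate, stood at 112 and 96.1 RPKM in libraries 1 and 2 of the anterior side, against 117 and 103 RPKM in libraries 1 and 2 of the posterior side. TPI1, which interconverts the triose phosphates, was measured at 201 and 195 RPKM on the anterior side, against 189 and 200.0 RPKM on the posterior side. Its highest library exceeded its lowest 1.07-fold, and 1.09% of all tested genes had a smaller range over the 4 libraries. PGK1, which makes the first ATP of the pathway, had 254 and 229 RPKM on the anterior side, against 258 and 252 RPKM on the posterior side, and 4.81% of tested genes had a smaller range. For none of these 3 genes were the sides separated. Their log2 differences were -0.076 for GPI, 0.031 for TPI1 and -0.077 for PGK1, with limma adjusted p-values between 0.972 and 0.988. The 95% intervals were -0.68 to 0.53, -0.54 to 0.60 and -0.65 to 0.50, not adjusted for the number of genes tested. Differences inside these bounds were thus not excluded with 2 libraries a side. The sign of TPI1 turned to -0.11 after median ratio scaling, and that of PGK1 to 0.021 after quantile normalization.

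GAPDH, PGAM1 and ENO1 varied mainly through posterior library 1. GAPDH, which oxidises glyceraldehyde 3-phosphate and is a common reference gene, was at 1431 and 1324 RPKM in libraries 1 and 2 of the anterior side, against 1791 and 1374 RPKM in libraries 1 and 2 of the posterior side. ENO1, which forms phosphoenolpyruvate, stood at 974 and 834 RPKM on the anterior side, against 1392 and 897 RPKM on the posterior side. PGAM1, which acts just before enolase and shifts the phosphate of phosphoglycerate, was measured at 151 and 138 RPKM on the anterior side, against 92.4 and 163 RPKM on the posterior side. GAPDH and ENO1 had their highest value in posterior library 1, PGAM1 had its lowest there, and posterior library 2 lay within or near the anterior range for each.

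The log2 differences were -0.19 for GAPDH, -0.31 for ENO1 and 0.23 for PGAM1, each with a limma adjusted p of 0.964. Without posterior library 1 they were 0.0020 for GAPDH, 0.0071 for ENO1 and -0.17 for PGAM1, each with the other sign. Between the posterior libraries, library 1 minus library 2, the gaps were 0.38 for GAPDH, 0.63 for ENO1 and -0.82 for PGAM1 on the log2 scale. ENO1 exceeded PGAM1 6.43-fold and 6.03-fold in the anterior libraries, against 15.1-fold and 5.49-fold in posterior libraries 1 and 2. Smooth muscle markers and depth move with posterior library 1, and their part in these values was not tested.

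Other enzymes of the pathway were read from a list of 24 further symbols, of which 16 were found and 11 were tested. None passed limma over all genes and none had an unadjusted p under 0.05. There were 6 positive and 5 negative differences, with a median of 0.014 that was -0.038 without posterior library 1. PKM, which makes pyruvate and which the RefSeq table lists as a synonym of PKLR, had 241 and 245 RPKM in libraries 1 and 2 of the anterior side, against 150.4 and 255 RPKM in libraries 1 and 2 of the posterior side. ALDOC, an aldolase, was at 212 and 194 RPKM on the anterior side, against 189 and 213 RPKM on the posterior side. PKM and ALDOC were thus both lowest in posterior library 1, and both overlapped between the sides.

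Phosphofructokinase, the main control point of the pathway, was represented mostly by PFKP, at 53.9 and 49.4 RPKM on the anterior side and 66.9 and 53.0 RPKM on the posterior side. PFKL stood at 5.51 and 5.78 RPKM on the anterior side, against 1.42 and 5.49 RPKM on the posterior side, and PFKM did not exceed 0.740 RPKM. The sum of these 3 genes was 59.9 and 55.9 RPKM on the anterior side and 68.7 and 58.9 RPKM on the posterior side. PFKP was highest and PFKL lowest in posterior library 1, and the log2 difference of PFKL, 0.75 over all libraries, was 0.035 without it.

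The regulatory enzymes that set fructose 2,6-bisphosphate, an activator of phosphofructokinase, were low. PFKFB4 was measured at 7.18 and 5.84 RPKM on the anterior side, against 8.68 and 8.42 RPKM on the posterior side, with a log2 difference of -0.35 (limma, adjusted p = 0.964) and -0.33 without posterior library 1. Of the 11 tested genes of the list, PFKFB4 was the 1 whose posterior libraries both lay above both anterior ones. PFKL was the 1 separated in the other direction. Over all tested genes, 7.25% were separated with posterior higher and 18.9% with anterior higher. PFKFB2 had 3.41 and 3.34 RPKM on the anterior side and 1.39 and 4.09 RPKM on the posterior side. PFKFB3 was at 2.98 and 3.82 RPKM on the anterior side and 4.40 and 2.97 RPKM on the posterior side, and PFKFB1 stayed at or below 1.62 RPKM. BPGM, which makes 2,3-bisphosphoglycerate, stood at 21.5 and 21.0 RPKM on the anterior side and 22.4 and 21.1 RPKM on the posterior side. ADPGK, which phosphorylates glucose with ADP, was measured at 13.9 and 12.3 RPKM on the anterior side and 5.91 and 15.4 RPKM on the posterior side. HK3, HKDC1 and LDHD did not exceed 0.868 RPKM in any library and were not tested.

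**Figure D4:**
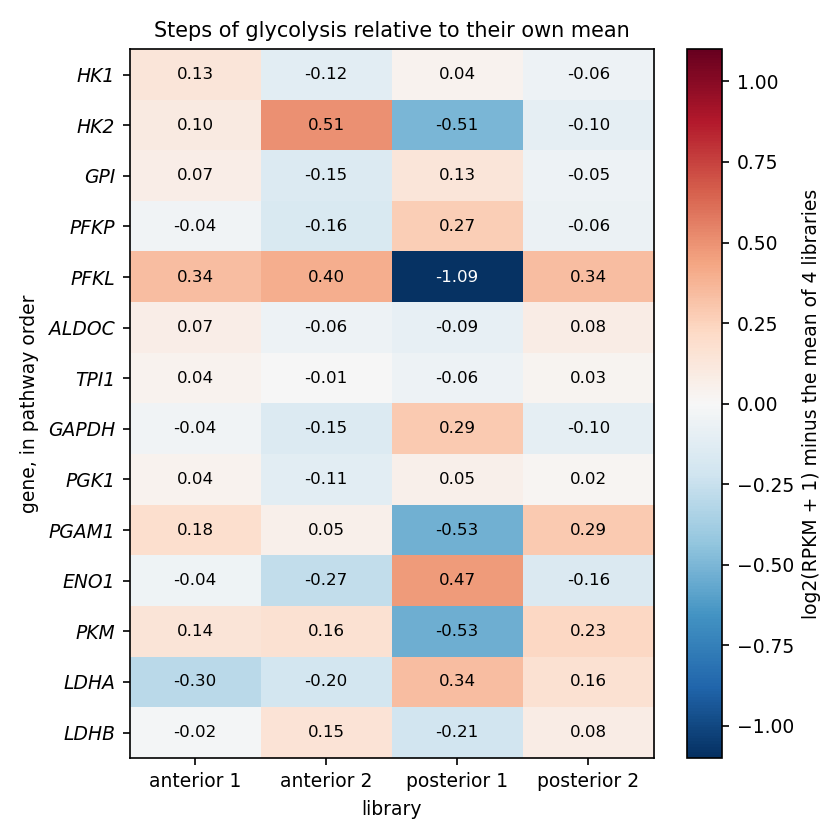
For 14 genes in pathway order (rows), the log2(RPKM + 1) of each library (columns) minus the gene's mean over the 4 libraries; red is above and blue below the mean. The posterior 1 column runs from -1.09 for PFKL to 0.47 for ENO1, HK2 reaches 0.51 in the anterior 2 column, and LDHA is below its mean in both anterior and above it in both posterior libraries.

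Set against the mean of the other 3 libraries, posterior library 1 differed in both directions along the same pathway. On the log2 scale it was higher for ENO1 by 0.63, for LDHA by 0.45, for GAPDH by 0.38 and for PFKP by 0.36. The difference was -1.45 for PFKL, -0.71 for PKM, -0.70 for PGAM1 and -0.68 for HK2. HK1, PGK1 and TPI1 moved by 0.054, 0.073 and -0.077. Of the 10 members, 5 had their highest and 4 their lowest value in that library. The enzymes of the pathway therefore did not shift together in it.

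Of 8 genes for muscle-type or neuronal isoforms, 3 were found and 2 tested. PGM5, a phosphoglucomutase-like protein of muscle adhesion sites, had 14.3 and 15.7 RPKM on the anterior side, against 85.1 and 17.5 RPKM on the posterior side. ENO2, the neuronal enolase, was at 1.37 and 0.828 RPKM on the anterior side, against 3.87 and 1.15 RPKM on the posterior side. PFKM, the muscle phosphofructokinase, was lowest in posterior library 1, at 0.311 RPKM. PGM5 and ENO2 had their highest values in posterior library 1, the library with the highest smooth muscle markers, and the part of these cells in the enzyme levels was not tested.

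Genes that feed or drain the pathway did not pass limma either. In the glycogen list, 17 of 20 genes were tested, 8 with positive and 9 with negative differences, and the median was -0.11. PYGB, a glycogen phosphorylase, stood at 5.90 and 6.73 RPKM on the anterior side, against 71.1 and 5.48 RPKM on the posterior side. PPP1R3C, a glycogen-targeting phosphatase subunit, was at 4.35 and 1.87 RPKM on the anterior side, against 16.1 and 2.34 RPKM on the posterior side. Both were highest in posterior library 1. GYG2, a glycogenin that primes glycogen, was measured at 4.79 and 5.71 RPKM on the anterior side and 2.58 and 4.65 RPKM on the posterior side. PHKA1, a phosphorylase kinase subunit, had 6.10 and 5.69 RPKM on the anterior side and 4.15 and 5.04 RPKM on the posterior side. GYG2 and PHKA1 were higher in both anterior libraries. Of the 17 tested genes, 4 were separated with anterior higher, beside 18.9% of all tested genes. With posterior higher there were 0, beside 7.25% of all tested genes. The median of the glycogen list was 0.14 without posterior library 1, with the sign turned.

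The pentose phosphate pathway branches off at glucose 6-phosphate and makes NADPH and ribose. Of its 11 listed genes 5 were tested and 4 were positive, with a median of 0.18 that was 0.029 without posterior library 1. RPIA, the ribose phosphate isomerase, was at 16.1 and 20.7 RPKM on the anterior side, against 7.91 and 17.9 RPKM on the posterior side. PGD, a step that makes NADPH, was at 74.3 and 80.6 RPKM on the anterior side, against 57.6 and 79.8 RPKM on the posterior side. Both genes were lowest in posterior library 1. Transketolase, TKT, had its highest value there, with 77.96 and 71.5 RPKM on the anterior side, against 89.2 and 71.7 RPKM on the posterior side.

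Gluconeogenesis, the reverse route, had 4 tested genes of 9 listed, 3 of them positive, with a median of 0.39 that was 0.18 without posterior library 1. G6PC3, a glucose 6-phosphatase, was at 7.32 and 5.38 RPKM on the anterior side, against 2.65 and 5.40 RPKM on the posterior side. SLC37A4, which carries glucose 6-phosphate into the endoplasmic reticulum, was at 4.33 and 2.22 RPKM on the anterior side, against 1.67 and 2.69 RPKM on the posterior side. These genes had their lowest value in posterior library 1, and FBP1, a fructose bisphosphatase, its highest, with 2.08 and 1.74 RPKM on the anterior side, against 3.08 and 1.42 RPKM on the posterior side.

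The hexosamine branch, which starts from fructose 6-phosphate and makes the sugar donor for protein glycosylation, had 6 tested genes, 4 of them positive, with a median of 0.20 that was 0.022 without posterior library 1. UAP1, its last enzyme, was at 8.36 and 11.7 RPKM on the anterior side, against 4.68 and 9.49 RPKM on the posterior side. GNPNAT1, an acetyltransferase, was at 11.9 and 9.79 RPKM on the anterior side, against 6.01 and 10.1 RPKM on the posterior side. GFPT2, a form of the first enzyme, went the other way in posterior library 1, with 8.56 and 6.20 RPKM on the anterior side, against 13.9 and 7.94 RPKM on the posterior side. OGT, which attaches the sugar to proteins, hardly varied, with 66.1 and 77.0 RPKM on the anterior side, against 67.5 and 77.9 RPKM on the posterior side. In these 3 branches the sides overlapped for every tested gene, while 26.2% of all tested genes had separated sides.

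The fate of pyruvate other than lactate was read from 15 tested genes of 19 listed, 10 of them positive. Their median was 0.024 (-0.040 without posterior library 1). The sides were separated for none of the 15, beside 26.2% of all tested genes. PDK4, a kinase that shuts down pyruvate dehydrogenase, stood at 5.33 and 0.393 RPKM on the anterior side, against 17.8 and 0.681 RPKM on the posterior side, so it differed more within each side than between sides. DLAT, a subunit of pyruvate dehydrogenase, was measured at 11.8 and 14.7 RPKM on the anterior side and 6.83 and 13.6 RPKM on the posterior side. PDPR, a regulator of its phosphatase, had 4.01 and 3.67 RPKM on the anterior side and 2.03 and 3.68 RPKM on the posterior side. GPT2, which turns pyruvate into alanine, was at 4.59 and 2.80 RPKM on the anterior side and 4.80 and 4.06 RPKM on the posterior side.

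The shuttles that restore cytosolic NAD+ in place of lactate dehydrogenase had 8 tested genes of 10 listed, 4 positive and 4 negative, with a median of -0.0090 that was -0.069 without posterior library 1. GPD1L stood at 12.6 and 12.0 RPKM on the anterior side against 16.3 and 14.2 RPKM on the posterior side. SLC25A12, a mitochondrial aspartate and glutamate carrier, was at 14.9 and 15.6 RPKM on the anterior side, against 21.2 and 16.4 RPKM on the posterior side. GPD1L and SLC25A12 were lower in both anterior than in both posterior libraries. GPD2, the mitochondrial glycerol phosphate dehydrogenase, was measured at 11.7 and 10.9 RPKM on the anterior side against 5.54 and 10.4 RPKM on the posterior side. GOT2, a mitochondrial aspartate aminotransferase, was at 44.8 and 52.9 RPKM on the anterior side, against 21.7 and 50.7 RPKM on the posterior side. GPD2 was higher in both anterior libraries, and the sides overlapped for GOT2. Of the 8 tested genes, 3 were separated with posterior higher, beside 7.25% of all tested genes. With anterior higher there was 1, beside 18.9% of all tested genes.

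LDHA, PGK1, ENO1 and HK2 are among the known targets of hypoxia-inducible factors in mammals, so genes of that response were listed. Of 27 symbols 21 were tested, 12 positive and 9 negative, with a median of 0.024 (0.064 without posterior library 1). The factor subunit HIF1A had 30.8 and 28.9 RPKM on the anterior side and 30.2 and 28.5 RPKM on the posterior side. The subunit ARNT had 26.6 and 28.1 RPKM on the anterior side, against 18.1 and 23.4 RPKM on the posterior side, without overlap. EPAS1 had 22.3 and 27.5 RPKM on the anterior side, against 15.1 and 22.9 RPKM on the posterior side, and overlapped. These genes were added to the description after their values were seen. Factor protein was not measured. BNIP3, a mitophagy receptor and target of these factors, was at 50.3 and 53.4 RPKM on the anterior side, against 113 and 64.1 RPKM on the posterior side, a log2 difference of -0.71 (standard error 0.34, limma adjusted p = 0.964) and -0.30 without posterior library 1. Its sides did not overlap, with posterior higher, which held for 7.25% of all tested genes. Of the targets named above, LDHA was separated in the same direction and HK2 in the other, while PGK1 and ENO1 overlapped. The part of hypoxia-inducible factors in any of these values was not tested.

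The other genes that the size rule took from this list did not share one pattern. The lactate exporter SLC16A3 stood at 2.58 and 1.22 RPKM on the anterior side, against 4.49 and 1.40 RPKM on the posterior side. The glucose transporter SLC2A1 was measured at 20.3 and 17.1 RPKM on the anterior side, against 11.4 and 16.2 RPKM on the posterior side. LOX, a collagen crosslinking enzyme, had 21.2 and 21.5 RPKM on the anterior side, against 6.71 and 13.8 RPKM on the posterior side, and was the gene of this list with an unadjusted p under 0.05. SLC2A1 and LOX were higher in both anterior libraries, and SLC16A3 overlapped. Of the 21 tested genes of the list, 3 were separated in each direction. Over all tested genes, 18.9% were separated with anterior higher and 7.25% with posterior higher.

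Transcription factors known to act on glycolytic genes gave 7 tested genes of 13 listed, 6 of them positive, with a median of 0.40 that was 0.064 without posterior library 1. KLF4 was at 33.2 and 38.6 RPKM on the anterior side, against 14.1 and 29.7 RPKM on the posterior side. ESRRG stood at 1.42 and 1.33 RPKM on the anterior side, against 2.29 and 1.74 RPKM on the posterior side. KLF4 was higher, and ESRRG lower, in both anterior libraries, and neither passed limma over all genes. Of the 7 tested genes, 3 were separated with anterior higher, beside 18.9% of all tested genes. With posterior higher there was 1, beside 7.25% of all tested genes.

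In the median, replicate spread of the members was smaller than that of all tested genes. The median gap between libraries of a side was 0.16 for the 10 members on the anterior side and 0.24 in the posterior on the log2 scale, against 0.21 and 0.44 for all tested genes. The range over all 4 libraries had a median of 0.40 for the members and 0.62 for all tested genes. These comparisons were not matched for level. The members had means from 6.22 to 1480.0 RPKM, while the median of all 15386 rows was 3.75 to 4.88 RPKM, depending on the library. HK2 had the widest range of the members, with its highest library 2.28 times its lowest, followed by PGAM1 at 1.77, ENO1 at 1.67 and LDHA at 1.55. GAPDH was at 1.35, LDHB at 1.29, GPI at 1.22, HK1 at 1.20 and PGK1 at 1.12.

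The genes with the profile most like that of LDHA were taken from 6815 named genes with a mean of at least 5 RPKM, by the root mean square distance between centred log2 profiles over the 4 libraries. They were RAB4A at a distance of 0.061, ELOVL4 at 0.061, CD99 at 0.066, BCAT1 at 0.066 and ZNF521 at 0.068. CD99, a membrane glycoprotein, was measured at 179 and 181 RPKM on the anterior side, against 297 and 237 RPKM on the posterior side. For LDHB the nearest were REXO4, SELRC1, TFAM, TBCE and GTF2H1, at distances of 0.011 to 0.017. For the mean profile of the 10 members they were SLC12A7, AHCTF1, PSMD14, CNDP2 and GPATCH2, at 0.0032 to 0.011. That mean profile was nearly flat, and SLC12A7 stayed between 5.84 and 6.08 RPKM. Single members moved in both directions, in posterior library 1 from -0.53 for PGAM1 to 0.47 for ENO1 around their own means. With 4 libraries many genes share a profile by closeness alone, and all values of a library share its depth.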

How the data were processed

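The authors deposited 1 table of RPKM with a column per library, and its name gives Ensembl release 78. TopHat2, Partek and the build galGal4 are named in the submitters' processing notes, and the sources used here do not give the counting method. Per the labels' protocols, RNA was extracted in Trizol and libraries were TruSeq. RPKM keep no read totals, so only relative depth was read, from ratios of values under 0.3 RPKM. How reads over gene copies or overlapping genes were shared is not stated.

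Columns were matched to samples by library number. The filter kept genes that reached 1 RPKM in 2 or more libraries. These were compared as log2(RPKM + 1), which understates the change of low genes. The test was limma 3.58.1 in R 4.3.3 (eBayes with trend, 2 residual degrees of freedom). Its two-sided p-values were adjusted by Benjamini-Hochberg over all 10939 genes, with a threshold of 0.05. The fit was also run on simulated data with a common spread for all genes and independent libraries, a simpler setting than these data. The 10 members, the gene lists and the tests were chosen with earlier results of these data known. The text names all members, the found genes of the glycolysis and isoform lists, up to 2 genes per direction of each other list, and the 5 nearest profiles; a few listed genes are not reported here. List symbols were matched by name or unique RefSeq synonym (assembly bGalGal1.mat.broiler.GRCg7b, used for names only, so no positions are given). No protein or promoter sequences were used here. Shares over ratios of gene pairs cover the tested genes above 0 in every library. Alternatives were other pseudocounts, filters, scalings, eBayes options, a block and leaving out each library.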

Additional observations from a re-analysis of the deposited data

How the results depend on the processing

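All alternatives gave 0 members called. LDHA and HK2 kept their direction in 13 of 13 alternatives each, LDHA between -0.64 and -0.41 and HK2 between 0.40 and 0.81. Most of these could not turn it. Filters, eBayes options and the block leave an estimate unchanged. Pseudocounts and leaving out a library cannot turn the sign of a gene with separated sides. Median ratio scaling and quantile normalization could, and gave -0.64 and -0.41 for LDHA. For HK2 they gave 0.49 and 0.45. Of 130 alternatives over the members, 116 kept the direction and 14 turned it, and many of the 130 leave the estimate unchanged. Median ratio scaling gave a member median of -0.17, with HK1 at -0.12, TPI1 at -0.11 and LDHB at -0.0081. Quantile normalization gave -0.040 for HK1 and 0.021 for PGK1, and an LDHA to LDHB log2 ratio difference of -0.59. The cause of these shifts beyond the rescaling itself was not tested.

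Leaving out each library in turn, with the lone library assumed to vary like the other side, gave member medians of -0.13 to 0.041 and LDHA to LDHB differences of -0.87 to -0.40. The ranges were -0.11 to 0.14 for HK1, -0.19 to 0.034 for GPI, -0.011 to 0.073 for TPI1, -0.38 to 0.0020 for GAPDH, -0.17 to 0.64 for PGAM1, -0.63 to 0.0071 for ENO1 and -0.012 to 0.28 for LDHB. Over all genes, 0 to 226 were called, the highest without posterior library 2. No member was among them, and the lone library of a side has no spread of its own in these fits. A replicate block on the column numbers called 2 genes over all, neither a member. Same-numbered libraries deviated together across genes (r = 0.49 over 10939 genes), but the labels do not say that a number is shared between sides. With 2 libraries a side, a difference smaller than the distance from its estimate to either end of its interval did not reach an unadjusted p under 0.05. The intervals are not adjusted for the number of genes tested. Larger differences were not called either, such as that of CORIN at 1.79 (limma adjusted p = 0.964).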
